A study of Mus musculus with 32 samples.

Results

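The 10 chemokine genes Ccl2, Ccl5, Ccl7, Ccl8, Ccl11, Cxcl1, Cxcl3, Cxcl5, Cxcl12 and Cx3cl1 were taken by name, with no use of their values in the rule, from the 55401 genes listed in each of 5 mouse RNA-seq tables, and were read in every group. The study concerns CD3254, a small molecule that activates the nuclear receptor RXRα, in the chemical conversion of fibroblasts into pluripotent stem cells (ciPSC reprogramming), and its title names the RNA exosome and inflammation. The list of members was chosen with earlier results of these data known. There were 32 libraries in 16 groups of 2. Every group except R1 was labelled as OG2X129 mouse embryonic fibroblasts, or cells derived from them, under ciPSC conditions: a serum and KSR medium with bFGF and the compounds VPA, CHIR99021, 616452, Parnate, Forskolin, AM580, EPZ004777 and vitamin C. The reprogramming groups carried added CD3254 (CD) or DMSO, Rxra overexpression (Rxra-OE) or its control (CTR, genotype WT OE), and knockdown of the RNA exosome subunit gene Exosc3 (shE3) or a control hairpin (shCTR, genotype WT shRNA). A time course held CD and DMSO cultures at 0, 4 and 8 h of actinomycin D (ActD), which blocks transcription. A last table held stem cell lines from the CD arm (CD-iPSC) and from the DMSO arm (DMSP-iPSC in the title, DMSO addition in the genotype field), the fibroblasts (MEF) and R1 embryonic stem cells from mouse blastocyst. The MEF libraries carry the same genotype and reprogramming labels as the shCTR group. The day of collection, the vectors and the number of clones behind each iPSC line were not in the labels used here. Nothing there says whether the 2 libraries of a group came from separate cultures, so p-values measure only the spread between these libraries.

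Chemokines are small secreted proteins that bind G protein-coupled receptors and draw leukocytes along a gradient, and fibroblasts are a well known source of them in inflamed tissue. Ccl2 and Ccl7 draw monocytes through Ccr2, Ccl8 is a closely related chemoattractant, Ccl11 (eotaxin) draws eosinophils through Ccr3, and Ccl5 (RANTES) draws T cells and monocytes. Cxcl1, Cxcl3 and Cxcl5 draw neutrophils through Cxcr2, Cxcl12 retains stem and progenitor cells through Cxcr4, and Cx3cl1 (fractalkine) is made as a membrane-anchored protein that binds Cx3cr1. Many inflammatory chemokine genes are induced by NF-κB, and the messages of several carry AU-rich elements in the 3′ UTR, which recruit decay factors such as Zfp36 (tristetraprolin).

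The members lie in 2 clusters and 3 separate places of GRCm38 (mm10). Ccl2, Ccl7, Ccl11 and Ccl8 lie in that order on chromosome 11 from 82035571 to 82116799, a span of 81 kb, and Ccl5 lies further along that chromosome on the reverse strand, at 83525778 to 83530518. Cxcl5, Cxcl3 and Cxcl1 lie on chromosome 5 from 90759360 to 90893115, a span of 134 kb. Cxcl12 lies on chromosome 6 at 117168535 to 117181367 and Cx3cl1 on chromosome 8 at 94772009 to 94782427. RefSeq promoters (GRCm38.p6) were matched for 5 of the 10 members: Ccl8, Cxcl1, Cxcl3, Cxcl12 and Cx3cl1. The 250 bases before the start site are shown for Ccl8, the member with the most RNA in the reprogramming cultures, and for Cxcl1 and Cxcl3, neighbours that both fell under Exosc3 knockdown. Capitals mark the match to the κB site of NF-κB, and the windows are chr11:82114935-82115184, chr5:90890995-90891244 and chr5:90785851-90786100, all on the forward strand.
Ccl8: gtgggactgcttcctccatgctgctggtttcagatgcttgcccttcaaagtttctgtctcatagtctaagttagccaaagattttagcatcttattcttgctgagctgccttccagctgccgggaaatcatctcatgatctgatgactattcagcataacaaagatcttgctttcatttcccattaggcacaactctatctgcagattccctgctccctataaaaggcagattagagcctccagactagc
Cxcl1: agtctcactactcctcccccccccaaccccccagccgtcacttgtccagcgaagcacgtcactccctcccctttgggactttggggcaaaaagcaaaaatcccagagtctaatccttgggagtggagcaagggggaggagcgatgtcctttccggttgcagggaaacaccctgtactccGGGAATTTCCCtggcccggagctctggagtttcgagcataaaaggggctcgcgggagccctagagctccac
Cxcl3: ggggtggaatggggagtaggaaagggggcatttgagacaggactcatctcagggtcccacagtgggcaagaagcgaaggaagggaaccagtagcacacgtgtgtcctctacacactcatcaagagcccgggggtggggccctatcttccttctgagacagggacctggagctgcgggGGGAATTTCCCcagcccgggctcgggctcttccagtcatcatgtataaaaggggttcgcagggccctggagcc
Cxcl1 and Cxcl3 held the same run of letters, GGGAATTTCCC, which begins 71 bases before the start site of Cxcl1 and 73 before that of Cxcl3 and holds overlapping matches on both strands. No κB match was found in these windows of Ccl8, Cxcl12 and Cx3cl1, and 7.25% of 32851 promoters of the same length held one. The AP-1 letters TGANTCA were in none of the 5 promoters and in 6.75% of all promoters. The letters TATAAA began 32 bases before the start of Ccl8, 30 before that of Cxcl3 and 6 before that of Cx3cl1, and 12.4% of promoters held them anywhere. The Cx3cl1 window ended at chr8:94772179, inside the gene span given above, so its RefSeq start differs from the start of that span. All motif hits here are matches of letters and say nothing of binding.

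In the annotated 3′ UTRs the members differed widely in the AU-rich pentamer ATTTA. Cxcl1 held 7 in 592 bases, Ccl11 5 in 644, Cxcl3 5 in 645 and Cxcl5 5 in 1111. Cxcl12 held 3 in 2768 bases, Ccl7 held 2 in 435, Ccl2 and Cx3cl1 held 1 each, and Ccl8 and Ccl5 held 0. Over 13891 tested genes with a 3′ UTR the median was 1, and 67.9% held at least 1. The density in Cxcl1, 11.8 per 1000 bases, was above that of 99.4% of those genes, and Cxcl1 held the longer motif TTATTTATT 2 times, which 7.57% of genes hold at all. Cxcl3 and Cx3cl1 held that longer motif 1 time each. The 30-base stretches with the most pentamers are shown for the members of highest density, with each ATTTA in capitals, at chr5:90892602-90892631, chr5:90787629-90787658 and chr11:82062656-82062685 on the forward strand.
Cxcl1: gagggtcctATTTATTTAtgtATTTATTTA
Cxcl3: caagatggcatcttATTTAatgtttATTTA
Ccl11: aATTTAcactaactaaaatgttaatATTTA
Sequence shared with other genes touched few members: 6.31% of the 50-base stretches of the Cxcl3 transcript also occur in Cxcl2 and 0.871% of those of Cxcl5 occur elsewhere, while the other 8 members share none.

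The labels were checked on the targeted and marker genes. Rxra stood at 21.7 TPM in both Rxra-OE libraries against 8.70 and 9.57 in CTR, and Exosc3 at 5.97 and 4.01 TPM in shE3 against 8.86 and 10.22 in shCTR. Summed fibroblast markers (11 genes, Col1a1 among them) were highest in MEF at 17239 and 18026 TPM. Pluripotency markers summed to between 4959 and 5927 TPM in the iPSC and R1 libraries and to at most 25.6 elsewhere. Mitochondrial RNA took 50.9% to 62.0% of TPM in the CD and Rxra tables and 7.46% to 17.4% in the shE3 and iPSC tables, so levels were compared within a table, each scaled separately. The time course held 15382821 to 24186485 reads per library. Changes are given on the log2(value + 1) scale after rescaling the libraries of a table to a common median ratio, which understates the change of low genes. Between the rescaled and the deposited values the median gene shifted by 0.155 in the CD table and by 0.536 in the Rxra table.

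The make-up of the chemokine RNA differed between the MEF libraries and the reprogramming cultures. TPM is scaled to transcript length, so genes can be ranked within a library. In DMSO the leading member was Ccl8, at 719 and 731 TPM and rank 45 and 52 among all genes, followed by Ccl11 (96.2 and 101) and Ccl7 (92.1 and 95.3), then Cxcl5 (55.7 and 60.9) and Cxcl1 (20.9 and 21.8). Cxcl12 (15.5 and 15.7), Ccl2 (15.2 and 12.1) and Cxcl3 (12.2 and 11.4) stood close together, and of these neighbours Ccl2 and Cxcl3 overlapped. Cx3cl1 (0.98 and 1.49) and Ccl5 (0.28 and 0.06) came last. Ccl8 made up 69.6% to 69.9% of the summed TPM of the members in DMSO, 77.8% to 78.0% in CTR and 72.4% to 72.5% in shCTR. In MEF it made up 2.05% and 2.61%, and there Ccl7 (39.6% to 41.8%), Ccl2 (29.5% to 30.5%) and Cxcl12 (18.5% to 20.9%) led. The sums themselves, from separately scaled tables, were 980 and 1126 TPM in MEF, 1028 and 1051 in DMSO, 620 and 644 in CTR and 3155 and 3603 in shCTR. MEF and the reprogramming cultures were not in one table, so this difference in make-up was not tested.

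**Figure D1:**
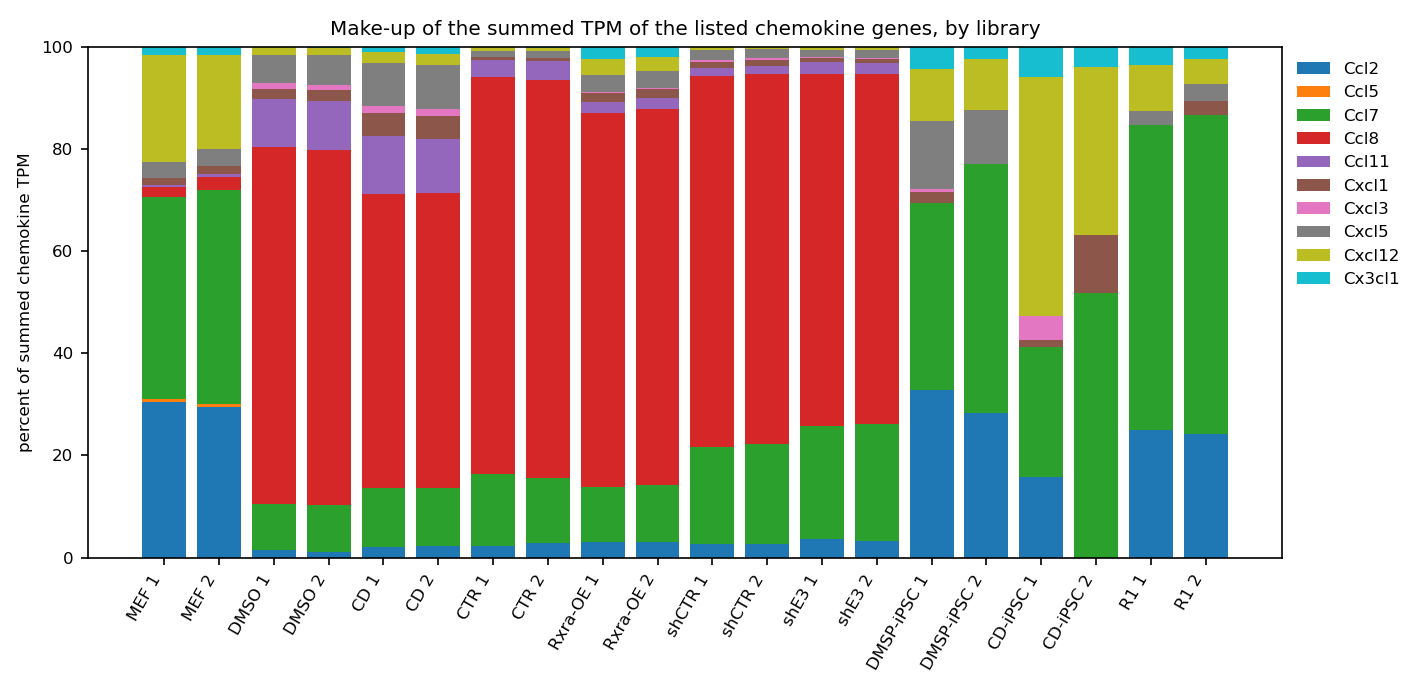
Stacked bars give each chemokine gene's percent of their summed TPM in each of the 20 libraries of the TPM tables. Ccl8 fills 57.6% to 78.0% of every reprogramming library but 2.05% and 2.61% of the MEF libraries, where Ccl7, Ccl2 and Cxcl12 fill most of the bar.

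Under CD3254 Ccl8, Ccl7 and Ccl11 of the chromosome 11 cluster fell, led by Ccl8, while Cx3cl1 rose and Ccl2 did not pass. Of 9 members tested 6 fell and 2 rose (limma, adjusted p under 0.05), where 29.7% of 13006 genes were called lower and 32% higher, so that most genes of this table were called. On the deposited scale 5612 genes were called higher and 2534 lower, against 4159 and 3868 after rescaling, and the members were still 2 and 6. The median change of the members was -0.48 against 0.02 for all genes. Ccl5 was too low to test, at 0.28 and 0.06 TPM in DMSO and listed at 0 in both CD libraries.

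Ccl8 stood at 343 and 346 TPM in CD against 719 and 731 in DMSO, a change of -1.26 ± 0.03 (SE, limma adjusted p = 2.52e-05). Ccl7 stood at 69.2 and 66.7 against 92.1 and 95.3 TPM (-0.64 ± 0.04, limma adjusted p = 0.000195). Ccl11 stood at 67.8 and 63.3 against 96.2 and 101 TPM (-0.77 ± 0.05, limma adjusted p = 0.000207). In each of the 3 genes both CD libraries lay below both DMSO libraries, and Ccl8 moved by the most. Ccl2, the first gene of the same cluster, was 11.9 and 14.0 TPM in CD against 15.2 and 12.1 in DMSO. Its libraries overlapped, and its change of -0.24 had a 95% interval from -0.60 to 0.12 (limma adjusted p = 0.193).

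The neutrophil chemokines split. Cxcl3 stood at 8.12 and 7.63 TPM in CD against 12.2 and 11.4 in DMSO (-0.69 ± 0.08, limma adjusted p = 0.00118), and Cxcl5 at 50.1 and 52.2 against 55.7 and 60.9 (-0.37 ± 0.04, limma adjusted p = 0.000963). Cxcl1, which carries the same κB letters as Cxcl3, was higher in CD, at 27.1 and 27.0 against 20.9 and 21.8 TPM. Its rise of 0.15 ± 0.04 (limma adjusted p = 0.0322) was the smallest of the called changes and missed the threshold whenever either CD library or either DMSO library was left out (limma adjusted p from 0.0634 to 0.134). Cxcl12 fell, from 15.5 and 15.7 TPM to 12.3 and 12.7 (-0.48 ± 0.05, limma adjusted p = 0.000933). Cx3cl1, the membrane-bound member, rose from 0.98 and 1.49 TPM to 5.98 and 7.86 (1.69 ± 0.15, limma adjusted p = 0.000523), with no overlap. It reached the filter of 1 TPM in 2 libraries through the CD libraries, where it is high, so its call is given as a description.

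The time course gave a separate CD and DMSO pair at 0 h, read in CPM (reads scaled to a fixed library total). Ccl8 was lower there too, at 194 and 263 against 544 and 578 CPM (-1.43 ± 0.17, limma adjusted p = 0.00178), as was Ccl7 at 99.8 and 83.3 against 119 and 144 (-0.64 ± 0.15, limma adjusted p = 0.025). These were the 2 members called lower of 9 tested, where 8.61% of 17064 genes were called lower and 7.47% higher. On the deposited scale 1402 genes were called higher and 1093 lower, against 1274 and 1469. No member was called higher by limma, edgeR or DESeq2, and 7 of 9 had an unadjusted limma p under 0.05. Ccl11 (40.9 and 70.1 against 70.5 and 106 CPM), Cxcl12 (12.4 and 20.4 against 23.6 and 28.4) and Cx3cl1 (15.0 and 24.2 against 11.1 and 11.3) had their means on the same side as in the CD table, at changes of -0.80, -0.78 and 0.60 that did not pass. The 2 libraries of CD at 0 h stood apart: replicate 2 was the higher for Ccl8, Ccl11, Cxcl12 and Cx3cl1. Without it Ccl11 (-1.18, limma adjusted p = 0.00865) and Cxcl12 (-1.11, 0.00614) passed, as they did without replicate 1 of DMSO at 0 h (0.0296 and 0.042), where Cxcl5 passed too (-0.58, 0.0374). Ccl7 no longer passed without replicate 2 of DMSO at 0 h (limma adjusted p = 0.193), on the deposited values (0.0511), without a filter (0.056) or with ERCC scaling (-0.30, limma adjusted p = 0.407).

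**Figure D2:**
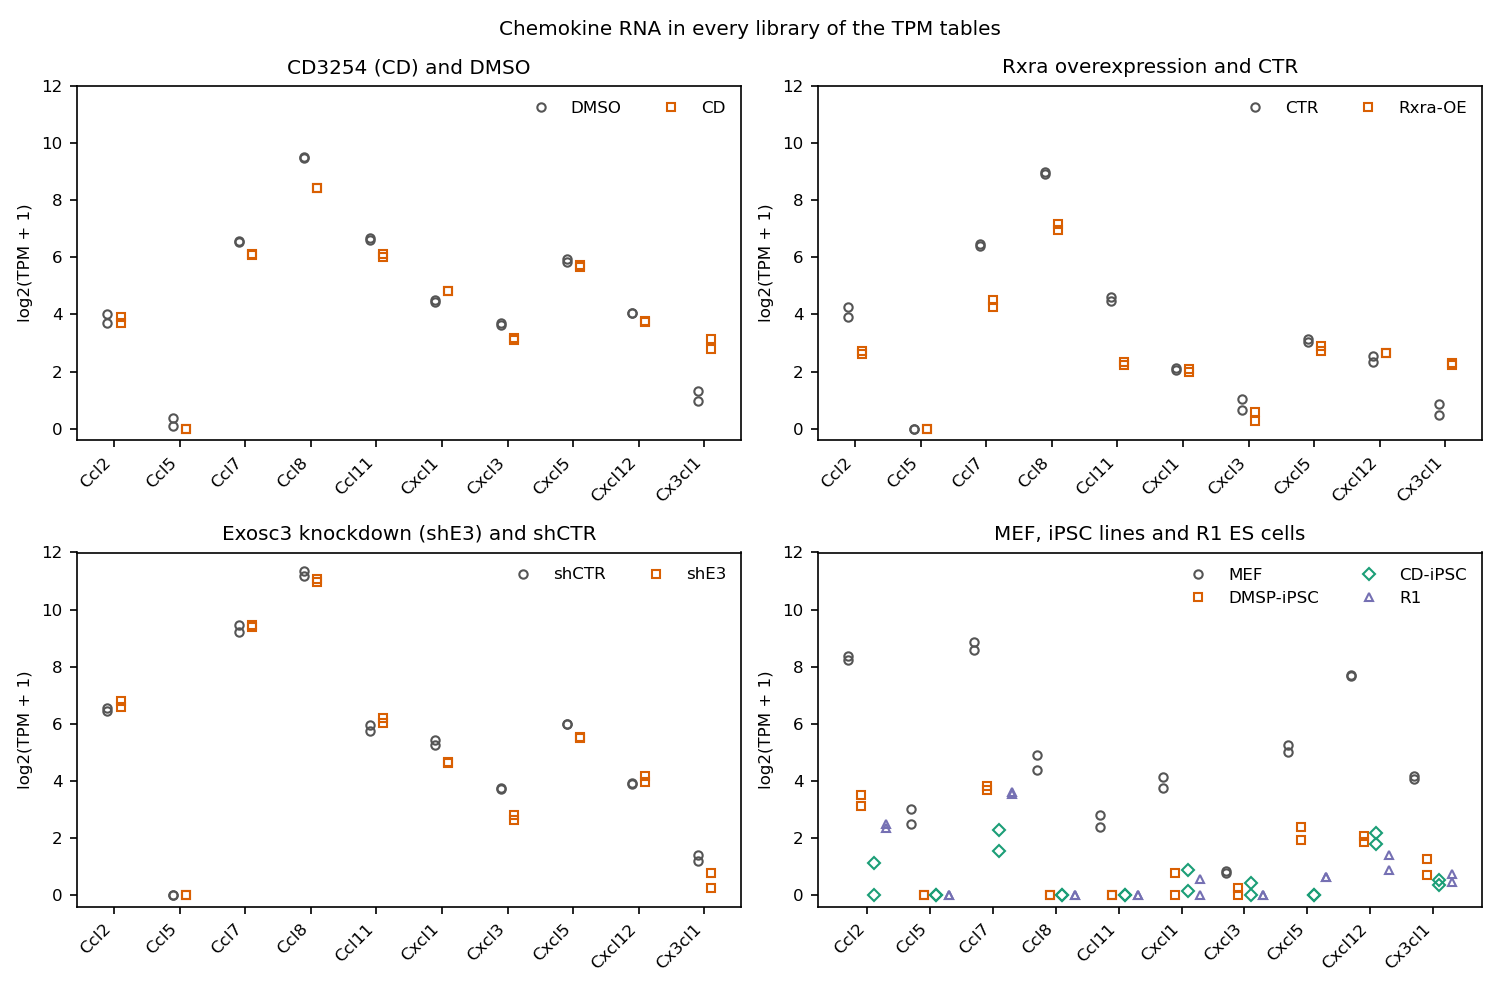
Points are libraries, as log2(TPM + 1), for each chemokine gene in the CD, Rxra, shE3 and iPSC tables, with 2 libraries a group and no averaging. Ccl8 is the highest point of every reprogramming group, and the iPSC and R1 points lie below the MEF points for every gene.

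With Rxra overexpressed the chromosome 11 cluster fell, Ccl2 included, and Cx3cl1 was higher. Of 8 members tested 7 fell and 1 rose, where 32.3% of 13305 genes were called lower and 39.3% higher. On the deposited scale 9123 genes were called higher and 1862 lower, against 5234 and 4303 after rescaling, and of the members 1 was higher and 5 lower. The median change of the members was -1.42 against 0.08 for all genes. Ccl11 stood at 3.67 and 4.07 TPM in Rxra-OE against 21.3 and 23.4 in CTR (-2.84 ± 0.07, limma adjusted p = 9.28e-06). Ccl7 stood at 18.1 and 21.8 against 87.1 and 82.6 TPM (-2.68 ± 0.11, limma adjusted p = 2.07e-05), and Ccl8 at 123 and 141 against 482 and 502 (-2.55 ± 0.08, limma adjusted p = 1.21e-05). Ccl2 stood at 5.08 and 5.66 against 14.0 and 18.1 TPM (-1.99 ± 0.10, limma adjusted p = 3.75e-05). In all 4 genes the groups were far apart, and Ccl8 still made up 73.3% to 73.6% of the members' summed TPM in Rxra-OE.

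The CXC members moved less, and for Cxcl1 and Cxcl12 the call hung on the scaling. Cxcl5 stood at 5.59 and 6.47 TPM against 7.26 and 7.76 in CTR (-0.85 ± 0.09, limma adjusted p = 0.000428), and -0.28 on the deposited scale. Cxcl1 stood at 2.94 and 3.25 against 3.13 and 3.38 TPM, libraries that overlap as deposited. Its change of -0.56 ± 0.09 after rescaling (limma adjusted p = 0.00203) was -0.06 as deposited (limma adjusted p = 0.588). Cxcl12 stood at 5.34 and 5.26 against 4.096 and 4.77 TPM, and its change flipped from 0.22 as deposited to -0.33 after rescaling (limma adjusted p = 0.0759 and 0.0111). Cxcl3 was too low to test, at 0.21 and 0.52 against 0.57 and 1.05 TPM, and Ccl5 was listed at 0 in all 4 libraries. Cx3cl1 stood at 3.90 and 3.72 against 0.41 and 0.84 TPM (1.19 ± 0.14, limma adjusted p = 0.000702). It was tested only because both Rxra-OE libraries, where it is high, passed 1 TPM, so its call is no support.

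Genes of other cell types moved with these changes. All 11 fibroblast markers were called lower in Rxra-OE and 10 of 11 in CD, where 32.3% and 29.7% of all genes were. On the deposited values 10 were lower and 1 higher in Rxra-OE, and 9 were lower in CD. Their sums were 583 and 586 TPM in Rxra-OE against 1382 and 1538 in CTR. In CD they were 945 and 976 against 1431 and 1506 in DMSO. The 5 XEN-like endoderm markers and the 5 epithelial markers were all called higher in both comparisons, on the rescaled and the deposited values. Of all genes 39.3% were called higher in Rxra-OE and 32% in CD. The endoderm sum was 494 and 516 TPM in CD against 100.2 and 123 in DMSO, and 559 and 618 in Rxra-OE against 59.3 and 72.2 in CTR. The epithelial sum was 581 and 621 TPM against 153 and 165, and 549 and 563 against 74.4 and 84.7. Macrophage markers were low throughout (11.96 to 17.5 TPM summed over 14 genes, 3 of them at 1 TPM or more), and Ptprc, Adgre1 and Itgam were at 0.112 TPM or less in all 8 libraries. Of the 3 tested, 2 were called lower and 0 higher in Rxra-OE (1 and 1 on the deposited values). Lyz2 was among those lower, at 4.00 and 4.35 against 8.47 and 9.64 TPM (-1.52 ± 0.08, limma adjusted p = 3.85e-05). In CD 1 was called lower and 1 higher (1 and 2 on the deposited values). In bulk RNA, fewer cells of a type and less RNA per cell cannot be told apart, and the part of cell makeup in the chemokine changes was not tested.

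Exosc3 knockdown split the members by class: the neutrophil chemokines fell, while the chromosome 11 cluster moved little. Of 9 members tested 4 fell and 2 rose, where 14.7% of 15700 genes were called lower and 13.1% higher. On the deposited scale 761 genes were called higher and 1934 lower, and of the members 0 and 4. The median change of the members was -0.21 against -0.02 for all genes. Cxcl3 stood at 6.03 and 5.20 TPM in shE3 against 12.6 and 12.1 in shCTR (-0.99 ± 0.12, limma adjusted p = 0.00451). Cxcl1 stood at 24.2 and 23.5 against 37.7 and 42.0 TPM (-0.69 ± 0.05, limma adjusted p = 0.00171), and Cxcl5 at 44.7 and 45.2 against 63.2 and 62.1 (-0.44 ± 0.07, limma adjusted p = 0.00988). The groups did not overlap for these neighbours on chromosome 5, and all 3 passed on the deposited scale as well. Without a filter Cxcl5 missed the threshold (limma adjusted p = 0.0594).

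The rest of the shE3 changes were small or not called. Ccl8 stood at 2153 and 1996 TPM against 2288 and 2609, Ccl11 at 73.5 and 64.7 against 52.5 and 60.8, and Ccl2 at 111 and 96.0 against 85.6 and 92.8. Their changes of -0.21, 0.31 and 0.24 passed after rescaling (limma adjusted p = 0.0212, 0.0212 and 0.0481) and none passed on the deposited values (limma adjusted p = 0.179, 0.108 and 0.197). Ccl8 also missed the threshold without either shE3 library, Ccl11 without replicate 1 of shE3 or of shCTR, and Ccl2 without any 1 of 3 libraries (limma adjusted p from 0.0609 to 0.173 over these fits). Ccl7 (696 and 666 against 599 and 709 TPM) changed by 0.09, with a 95% interval from -0.02 to 0.20, and Cxcl12 (17.1 and 14.8 against 13.9 and 14.4) by 0.19, with an interval from -0.03 to 0.41. Cx3cl1 was lower in both shE3 libraries, at 0.20 and 0.71 against 1.66 and 1.31 TPM, with a change of -0.78 that did not pass (limma adjusted p = 0.0688) except on the deposited values (0.0476) or without replicate 2 of shE3 (0.0337). It was tested only through the shCTR libraries, where it is high, so those calls are no support. Ccl5 was listed at 0 in all 4 libraries.

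The marker lists moved in another way in shE3 than in CD or Rxra-OE. Fibroblast markers summed to 2869 and 2913 TPM in shE3 against 2896 and 3200 in shCTR, with 5 of 11 called higher and 2 lower (2 and 1 on the deposited values). The endoderm sum was 62.9 and 67.4 TPM against 197 and 219.5, and the epithelial sum 61.3 and 64.3 against 191 and 216, with all 5 genes of each list called lower. Macrophage markers summed to 382 and 384 TPM against 164 and 195, most of it Lyz2, a lysozyme gene (339 and 337 against 126 and 154), and 2 of 11 tested were called higher. Ptprc stood at 0.66 and 0.35 against 0.41 and 0.25 TPM, Itgam at 0.38 and 0.20 against 0.61 and 0.05, and Adgre1 at 1.19 and 1.52 against 1.10 and 1.11. The part of these cells in the chemokine values was not tested.

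**Figure D3:**
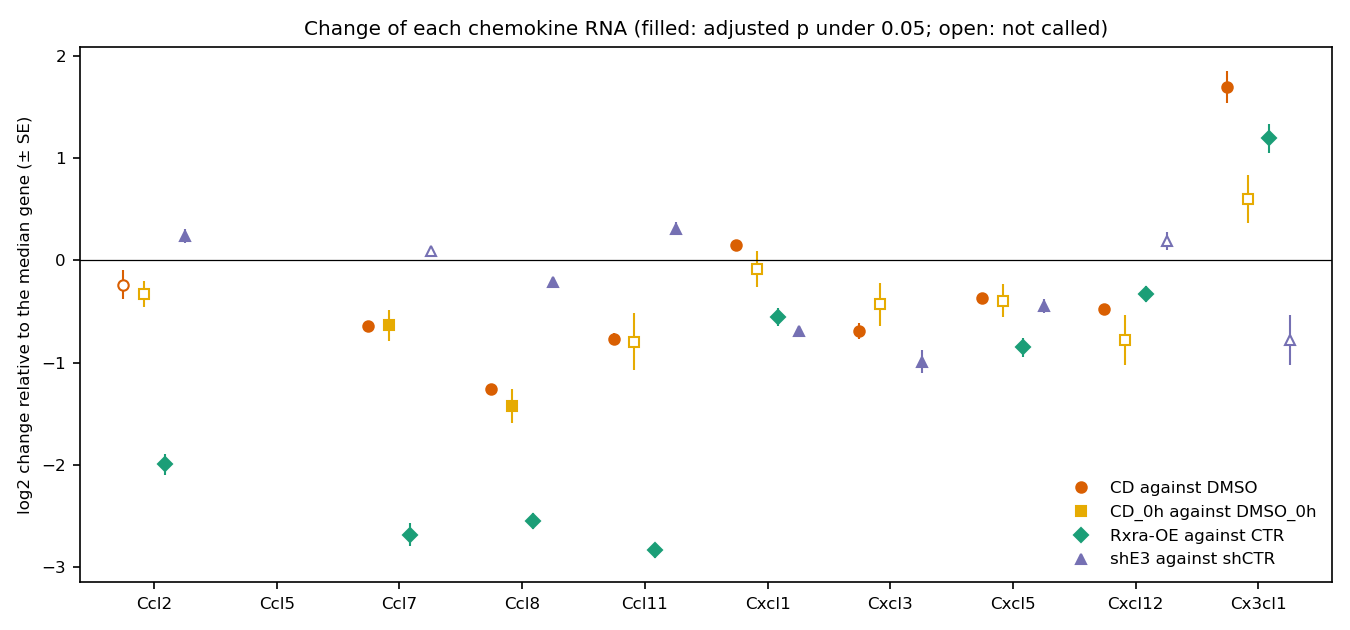
Points give each chemokine gene's log2 change relative to the median gene, with SE bars, for CD, CD at 0 h, Rxra-OE and shE3 against their controls (filled where limma's adjusted p is under 0.05). Ccl7, Ccl8 and Ccl11 lie below 0 in the CD and Rxra-OE comparisons, Cx3cl1 lies above 0 there, and Cxcl1, Cxcl3 and Cxcl5 lie below 0 in shE3.

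During ActD the members took different courses: Cxcl1 dipped at 4 h, and Ccl8 and Cxcl12 took a larger share of the reads by 8 h. In DMSO cultures Cxcl1 went from 23.9 and 24.8 CPM at 0 h to 8.05 and 10.7 at 4 h (-1.05 ± 0.17, limma adjusted p = 0.0099) and stood at 18.0 and 17.0 at 8 h. In CD cultures it went from 23.9 and 25.8 to 13.4 and 12.5 CPM (-0.58 ± 0.17, limma adjusted p = 0.0182) and stood at 19.5 and 20.9 at 8 h. The 4 h libraries lay below all 0 h and 8 h libraries in both arms, but leaving out any 1 CD library of 0 or 4 h, or any of 3 such DMSO libraries, lost the call (limma adjusted p from 0.0509 to 0.0997). Ccl7 showed such a dip in DMSO (119 and 144, then 60.8 and 65.6, then 97.6 and 116 CPM; -0.78 ± 0.15 at 4 h, limma adjusted p = 0.0124, but 0.108 or 0.0764 without either 4 h library), whereas in CD it was 99.8 and 83.3, then 79.3 and 66.0, then 92.9 and 106.

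Ccl8 rose relative to the median gene. In CD cultures it went from 194 and 263 CPM to 324 and 318 at 4 h (0.83 ± 0.17, limma adjusted p = 0.00375) and to 550 and 560 at 8 h (1.60 ± 0.17, limma adjusted p = 0.00103). In DMSO cultures it went from 544 and 578 CPM to 528 and 513 at 4 h, a change of 0.15 that did not pass, and to 890 and 858 at 8 h (1.02 ± 0.17, limma adjusted p = 0.00527). Cxcl12 rose in the same way, from 12.4 and 20.4 CPM to 36.9 and 32.6 at 8 h in CD (1.37 ± 0.24, limma adjusted p = 0.00321) and from 23.6 and 28.4 to 46.0 and 37.4 in DMSO (1.03 ± 0.24, limma adjusted p = 0.0157). In DMSO the 8 h rise of Ccl8 missed the threshold without replicate 1 of 8 h (0.87, limma adjusted p = 0.0534), and that of Cxcl12 without replicate 1 of 8 h or of 0 h (0.76 and 0.84, limma adjusted p = 0.14 and 0.115). Ccl11 rose in CD, from 40.9 and 70.1 to 114 and 108 CPM at 8 h (1.34 ± 0.28, limma adjusted p = 0.00448).

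CPM and a change relative to the median gene are both relative scales, so these rises are rises in share. On libraries scaled to the ERCC spike-ins (1267 to 2180 CPM) the rise of Ccl8 over 8 h was 0.95 in CD and 0.37 in DMSO, and in CD that of Cxcl12 was 0.76 and of Ccl11 0.70, each still past the threshold. The spike-ins themselves stood at 1267 and 1849 CPM in the CD libraries of 0 h and at 1634 and 1951 in those of DMSO. The starting point of that scale was thus unsteady, most of all in CD. In DMSO the rise of Cxcl12 was 0.40 on that scale and did not pass (limma adjusted p = 0.123). On that scale the 8 h changes of Ccl7 and Cxcl5 in CD turned from 0.43 and 0.53 to -0.22 and -0.11. The dip of Cxcl1 at 4 h was -1.31 in DMSO and -1.06 in CD on that scale, past the threshold in CD only. At 4 h that scale left 3 genes called higher and 1 lower of 17064 in DMSO. In CD it left 760 and 5025, so these calls cannot be used to compare the arms.

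Counted over the members, 1 was called higher at 4 h in DMSO (Cxcl12, 0.80, lost when any 1 of 3 libraries was left out) and 2 lower, where 5.9% of 17064 genes were called higher and 13.6% lower. The members there were, as deposited, 0 higher and 4 lower. At 8 h in DMSO 2 were called higher and 0 lower by limma, edgeR and DESeq2, against 15.1% and 14% of genes, and 3 of 9 had an unadjusted limma p under 0.05. At 4 h in CD 2 were called higher (Ccl8, and Ccl11, which was lost when any 1 of 3 libraries was left out) and 1 lower (Cxcl1), against 22.4% and 27.3%. As deposited they were 1 and 1. At 8 h in CD 6 were called higher (Ccl7, Ccl8, Ccl11, Cxcl3, Cxcl5, Cxcl12) and 0 lower, against 22.8% and 31.3%; edgeR called 7 higher and DESeq2 6, with 0 lower, and 6 of 9 had an unadjusted limma p under 0.05. Of those 6 the calls of Ccl7, Cxcl3 and Cxcl5 were lost when 1 of several libraries was left out (limma adjusted p from 0.0508 to 0.204). On the deposited scale the members were 3 and 0 there. For all genes that scale turned 1007 higher and 2313 lower into 224 and 3474 at 4 h in DMSO, and 2571 and 2392 into 637 and 4645 at 8 h. In CD it turned 3815 and 4653 into 1555 and 6145 at 4 h, and 3896 and 5345 into 2245 and 7045 at 8 h. The Cx3cl1 RNA of DMSO cultures was lowest at 8 h (11.1 and 11.3, then 11.9 and 13.2, then 6.12 and 5.20 CPM), whereas in CD it was 15.0 and 24.2, then 16.2 and 19.2, then 19.3 and 17.8. Ccl5 had 0 to 5 reads in each of the 12 libraries.

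**Figure D4:**
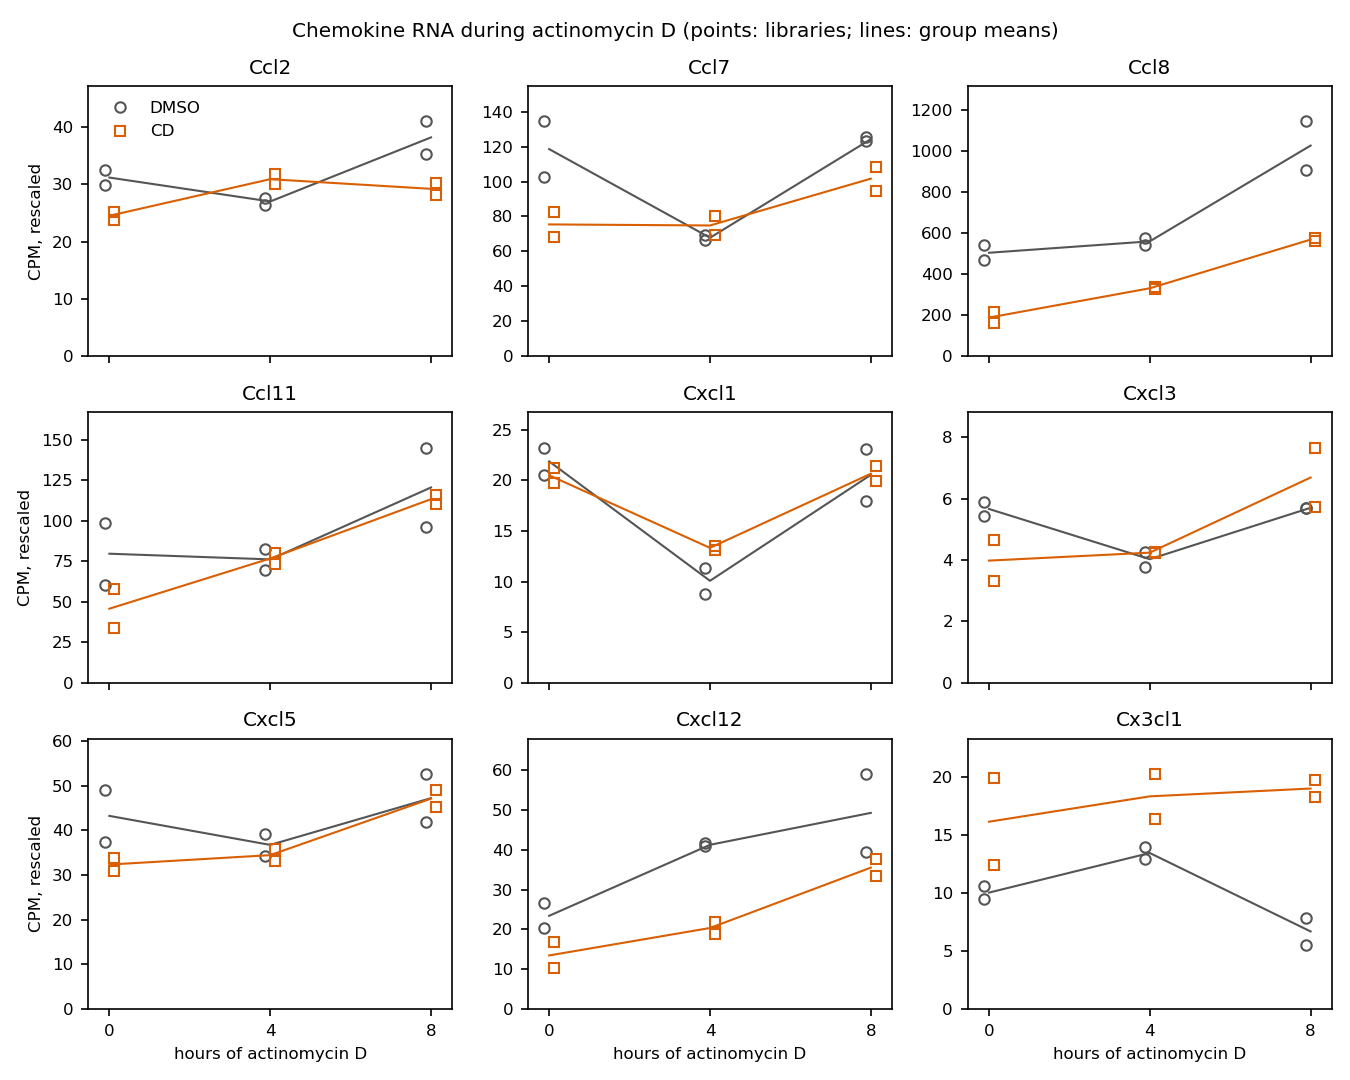
Points are libraries and lines group means of rescaled CPM at 0, 4 and 8 h of ActD for the 9 tested chemokine genes, in DMSO and CD cultures. Cxcl1 is lowest at 4 h in both arms, the means of Ccl8 and Cxcl12 are highest at 8 h, and Cx3cl1 is higher in CD than in DMSO at every time.

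The difference between the arms was tested in the same fit. No member passed for the change over 4 h or over 8 h (limma, edgeR and DESeq2 each 0 of 9), where limma called 0.00586% of 17064 genes higher, a single gene for each time. Unadjusted limma p-values under 0.05 were found for 3 members at 4 h and 2 at 8 h. For Ccl8 the change over 8 h was larger in CD by 0.58, with a 95% interval from 0.06 to 1.11 before adjustment (limma adjusted p = 0.382), and for Ccl7 the change over 4 h was larger in CD by 0.77, from 0.29 to 1.25 (limma adjusted p = 0.793). For Cx3cl1 the difference over 8 h was 0.79, from 0.06 to 1.52 (limma adjusted p = 0.385). In simulated data of this design 16 of 100 genes with a planted difference of 1 (log2) were recovered, and 61 of 100 with a difference of 2. The simulated noise was independent between libraries, its spread was taken before rescaling, and only better expressed genes were changed.

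Other cells' RNA moved along the time course as well. The macrophage sum in CD was 170 and 269 CPM at 0 h, 365 and 378 at 4 h and 610 and 642 at 8 h. In DMSO it was 387 and 542, then 549 and 506, then 718 and 559. Lyz2 led it, at 110 and 173, then 256 and 269, then 434 and 468 CPM in CD. The endoderm sum in CD went from 2672 and 1362 CPM to 279 and 241 and then 308 and 304. Fibroblast markers in CD summed to 4104 and 4013, then 3057 and 2979, then 4740 and 4737 CPM. Over 8 h in CD 8 of 11 fibroblast and 11 of 13 macrophage markers were called higher (7 and 9 on the deposited values). Of these lists 1 and 0 were called lower, where 22.8% of genes were higher and 31.3% lower. Their median changes were 0.88 and 1.16, against 0.53 for the members. Over 8 h in DMSO 7 of 11 and 4 of 13 were higher (4 and 1 on the deposited values), where 15.1% of genes were. At 0 h, 8 of 11 fibroblast and 6 of 13 macrophage markers tested were called lower in CD than DMSO, beside 8.61% of genes. Their part in the chemokine courses was not tested.

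AU-rich content can be set beside the 4 h values as a description. Cxcl1, with the densest run of pentamers, had the lowest 4 h change in each arm, and Ccl8, with 0, had one of 0.15 in DMSO and 0.83 in CD. Ccl11 and Cxcl3 have nearly the same density (7.76 and 7.75 per 1000 bases) but changed by 0.78 and 0.09 in CD and by -0.03 and -0.41 in DMSO. Over all tested genes the median 4 h change in DMSO was -0.19 for 2920 genes with 5 or more pentamers, -0.06 for 6509 with 1 to 4 and 0.12 for 4462 with 0. In CD the medians were -0.13, -0.10 and 0.11. At 8 h this order did not hold in CD, where the medians were -0.05, -0.17 and -0.06. In DMSO they were -0.09, -0.08 and 0.03 at 8 h.

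**Figure D5:**
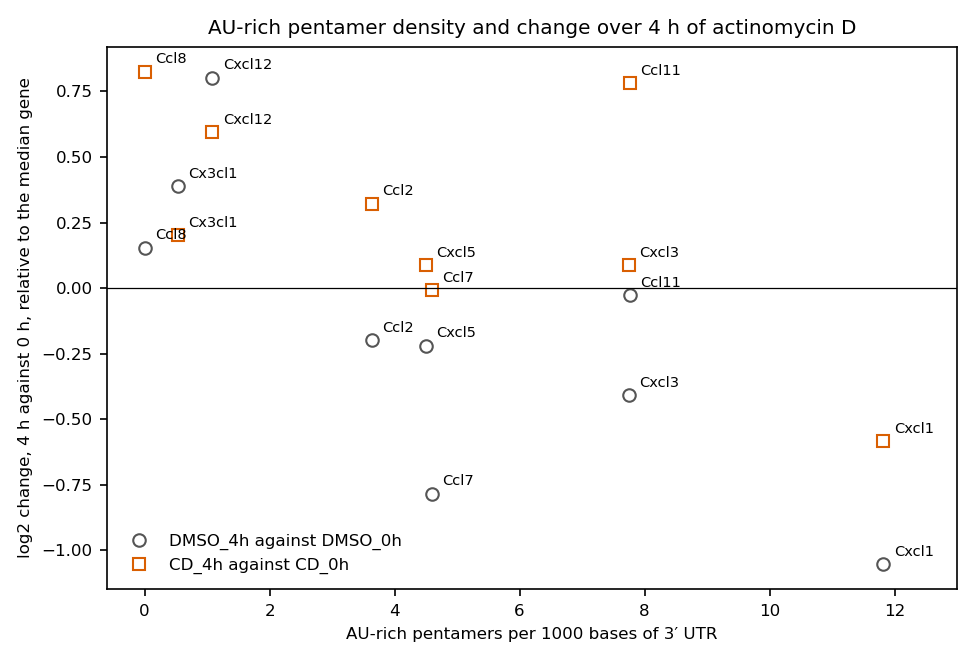
Each of the 9 tested chemokine genes is placed by its AU-rich pentamers per 1000 bases of 3′ UTR and its log2 change over 4 h of ActD relative to the median gene, once for DMSO and once for CD. Cxcl1 lies lowest in both arms, and Ccl11 and Cxcl3 differ in change at nearly the same density.

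Across the 12 ActD libraries each tested member was also set beside the 11911 other genes with a mean of at least 5 CPM, by Pearson's r of rescaled log2 values. The 2 most alike were Ddr2, a collagen receptor gene (r = 0.997), and Hs6st2 (0.995) for Ccl8, and Sned1 (0.996) and the macrophage gene Cd68 (0.990) for Cxcl12. They were Trim2 (0.986) and Usp34 (0.966) for Ccl7, Pip5k1a (0.983) and Zfyve27 (0.981) for Ccl11, and Ube2e2 (0.933) and 1110002L01Rik (0.903) for Ccl2. For the neutrophil chemokines they were Lats2 (0.927) and Abca1 (0.912) for Cxcl1, C430049B03Rik (0.912) and Ptar1 (0.898) for Cxcl3, and Fcho2 (0.960) and Rcbtb2 (0.946) for Cxcl5. For Cx3cl1 they were Slc22a21 (0.971) and the laminin gene Lama1 (0.969). Among the members Ccl8 and Cxcl12 were most alike (0.93), then Ccl8 and Ccl11 (0.86), and Cx3cl1 and Ccl7 were most opposed (-0.63). These libraries share treatment, time and depth, so the values describe likeness only.

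Among the cell lines chemokine RNA was high in MEF and low in every pluripotent line. The summed TPM of the members was 980 and 1126 in MEF, 31.9 and 26.9 in DMSP-iPSC, 18.6 and 17.2 in R1 and 7.48 and 7.53 in CD-iPSC. Ccl7 stood at 388 and 471 TPM in MEF, 11.7 and 13.1 in DMSP-iPSC, 11.1 and 10.7 in R1 and 1.91 and 3.91 in CD-iPSC. Ccl2 stood at 299 and 332, 10.5 and 7.62, 4.66 and 4.17, and 1.18 and 0 TPM in the same order. Cxcl12 stood at 204 and 208 in MEF, 3.22 and 2.66 in DMSP-iPSC, 3.50 and 2.48 in CD-iPSC and 1.66 and 0.86 in R1. For Ccl7 the neighbours DMSP-iPSC and R1 were close, and for Cxcl12 the 2 iPSC lines overlapped.

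Ccl5, Ccl8 and Ccl11 were listed at 0 in all 6 pluripotent libraries, and in MEF stood at 4.62 and 7.14, 20.1 and 29.4, and 4.29 and 6.07 TPM. They entered the test through MEF only, as did Cxcl1 (12.4 and 16.6 TPM in MEF, at most 0.86 elsewhere), so their count is no support. Cx3cl1 was 15.6 and 17.2 TPM in MEF and 0.29 to 1.40 elsewhere. It too would not have passed the filter without MEF, so its call is no support either. Cxcl5 was 30.9 and 37.5 TPM in MEF, 4.24 and 2.85 in DMSP-iPSC, 0.54 and 0.57 in R1 and listed at 0 in CD-iPSC. Cxcl3 was 0.81 and 0.72 in MEF, below the filter. Only Ccl2, Ccl7, Cxcl5 and Cxcl12 of the tested members passed the filter without MEF. Against MEF the 9 tested members were called lower in each line, where 34.2% (DMSP-iPSC), 34.7% (CD-iPSC) and 34.4% (R1) of 17414 genes were. These 3 comparisons share the MEF libraries. For Cxcl12 the changes were -5.63 ± 0.21, -5.68 ± 0.21 and -6.57 ± 0.21 in that order (limma adjusted p = 1.06e-06, 9.04e-07 and 4.84e-07).

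Between the iPSC lines Ccl2, Ccl7 and Cxcl5 were lower in CD-iPSC, and no member was called higher. The changes were -2.85 ± 0.34 for Ccl2, -1.90 ± 0.26 for Ccl7 and -2.24 ± 0.21 for Cxcl5 (limma adjusted p = 0.00112, 0.00174 and 0.000471). Thus 3 of 9 tested members fell, where 21% of genes were called lower and 17.6% higher. Of those 9, Ccl5, Ccl8 and Ccl11 were listed at 0 in every iPSC library and could not differ. Cxcl1 was at most 0.86 TPM there. Cxcl5 was listed at 0 in both CD-iPSC libraries and, MEF aside, reached the filter of 1 TPM only through DMSP-iPSC, where it is high. Its call is therefore given as a description. An unadjusted p under 0.05 was found for 4 members. Cxcl12 changed by -0.05, with a 95% interval from -0.56 to 0.46. Fibroblast markers also differed, at 94.1 and 107 TPM in CD-iPSC against 237 and 243 in DMSP-iPSC (6 of 11 lower), as did macrophage markers, at 59.7 and 63.2 against 101 and 113 TPM (8 of 14 lower, 5 on the deposited values). The MEF libraries themselves held a macrophage sum of 1357 and 1629 TPM, with Lyz2 at 869 and 1057, Ptprc at 5.91 and 5.38 and Adgre1 at 17.0 and 12.2. Their part in the chemokine values was not tested.

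The rest of the chemokine system was read from lists chosen with earlier results known. Their counts stand beside 29.7% of all tested genes called lower and 32% higher in CD, 32.3% and 39.3% in Rxra-OE, and 14.7% and 13.1% in shE3. Of 28 other chemokine genes 10 could be tested in the CD table, of which 5 fell and 2 rose (2 and 2 on the deposited values), with a median change of -0.25 against 0.02 for all genes. Ccl12, a monocyte chemokine gene, fell by 1.17 on the log2 scale (limma adjusted p = 0.000473), and Cklf, a chemokine-like factor gene, rose by 0.84 (limma adjusted p = 0.000995). In Rxra-OE 4 of 7 fell, with Cxcl14 at -1.59, and 2 rose, with Cklf at 1.55 (3 and 3 on the deposited values). In shE3 2 of 12 fell, with Ppbp, a platelet-derived neutrophil chemokine gene, at -0.74, and 3 rose (2 and 2 on the deposited values), with Pf4 at 0.68. Cxcl2, which shares sequence with Cxcl3 and lies outside the naming rule, was chosen after its value was seen: it changed by -0.65 in shE3 and did not pass (limma adjusted p = 0.108).

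Few receptors were expressed. Of 23 receptor genes 2 could be tested in the CD table and both fell (1 on the deposited values, beside 29.7% of all genes): Ackr3, a scavenging receptor of Cxcl12, by 0.41 and Ackr4 by 0.33 on the log2 scale. In Rxra-OE Ackr3 changed by -1.43 and Cxcr4, the signalling receptor of Cxcl12, by 1.06. In shE3 1 of 6 tested passed, Ccr1 at 1.32.

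In the IL-1, TNF, TLR and NF-κB list 10 of 33 tested genes fell and 2 rose in CD (8 and 6 on the deposited values), so the share that fell was near the 29.7% of all genes; the median change was -0.12. They were led by the receptor genes Il1rl1 (-1.28) and Tnfrsf1a (-0.83). In Rxra-OE 16 of 33 fell and 5 rose after rescaling, but 5 fell and 17 rose on the deposited values; Il1rl1 (-2.53 and -2.08) and Tnfrsf1a (-1.76 and -1.12) were lower on both scales. In shE3 10 of 35 rose and 1 fell (4 and 1 on the deposited values), with Tlr4 at 0.66 and Il1rl1 at 0.58. Of 13 regulators of AU-rich messages 5 fell and 4 rose in CD (2 and 6 on the deposited values), beside 29.7% and 32% of all genes, with a median change of -0.07. There Zfp36 changed by -0.54 and Tia1 by -0.60. In Rxra-OE 4 fell and 6 rose (1 and 7), with Zfp36 at -0.97 and Hnrnpd at 1.02, and in shE3 2 fell and 3 rose (1 and 1), with Hnrnpd at -0.50 and the kinase gene Mapkapk2 at 0.48. Over 4 h of ActD in DMSO Zfp36 fell by 2.32 and Nfkbiz, which encodes a nuclear partner of NF-κB, by 1.82 on the log2 scale (limma adjusted p = 0.0203 and 0.0076).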

How the data were processed

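RNA-seq of 32 libraries was read from 5 deposited tables. The submitters' processing notes list StringTie 2.0, HISAT2 2.1.0 and fastp 0.20.1 and the mm10 build, without options or roles. The deposited values of 4 tables were read as TPM, since every column has the same fixed total of that unit, and those of the time course as a signal of CPM, since they are whole reads scaled by library total (100% of values whole within 0.01 of a read in the lowest library); the file headers name no unit. Depth is known for the time course only. Ensembl IDs were named with GENCODE M21 (55141 of 55401 genes).

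Values were divided by median-ratio factors and tested as log2(value + 1) with limma 3.58.1 (R 4.3.3; trend, Benjamini-Hochberg over all tested genes, threshold 0.05), over genes that reached 1 in 2 libraries. Alternatives were the deposited scale, pseudocount 0.1, no filter, a filter at 5, a replicate block, leaving out each library, and for the time course ERCC scaling, edgeR 4.0.16 and DESeq2 1.42.0 on the recovered reads. With 2 libraries against 2 an exact permutation test cannot go below 0.333, so none was used. On simulated data with 200 changed genes, 86 of 100 genes with a log2 change of 1 were recovered in the CD design, 75 in the Rxra design and 66 in the shE3 design. Changes were planted only in better expressed genes, with noise independent between libraries and its spread taken before rescaling.

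The members, marker lists and pathway lists were chosen with earlier results of these data known. Named genes are the members, the targeted genes Rxra and Exosc3, up to 2 genes of smallest adjusted p per list and comparison, the 2 most alike genes per member, and Col1a1 and Lyz2. Ptprc, Adgre1 and Itgam, defining markers of the macrophage list, and Cxcl2 are named outside that rule, with their values known. Motifs were searched on both strands of RefSeq promoters, and ATTTA in the 3′ UTR of the principal (then longest) GENCODE transcript.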

Additional observations from a re-analysis of the deposited data

How the results depend on the processing

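Counts of members called higher or lower stayed within 1.5 times under most settings. In CD the higher count went from 2 to 1 under the crossed replicate block, which was chosen after seeing the data. In Rxra-OE the higher count was 0 with the filter at 5, since Cx3cl1 was then not tested. In shE3 the higher count of 2 became 0 on the deposited values, 1 with pseudocount 0.1 and 0 without a filter, and the lower count of 4 became 2 without a filter. At 0 h the lower count of 2 became 1 on the deposited values, without a filter and with ERCC scaling, and 4 with DESeq2. For DMSO at 4 h the higher count of 1 became 0 on the deposited values, without a filter, with the replicate block and with ERCC scaling, and the lower count of 2 became 4 on the deposited values and 0 with ERCC scaling. For DMSO at 8 h the higher count of 2 became 1 with ERCC scaling, and the lower count of 0 became 1 on the deposited values and with ERCC scaling. For CD at 4 h the higher count of 2 became 1 on the deposited values, without a filter, with the replicate block and with ERCC scaling, and 4 with edgeR and DESeq2. For CD at 8 h the higher count of 6 became 3 on the deposited values and with ERCC scaling. Single values that reversed were Ccl7 (-0.22) and Cxcl5 (-0.11) over 8 h in CD with ERCC scaling, and Cxcl12 in Rxra-OE on the deposited values (0.22). The causes were not tested, beyond the smaller number of genes at the stricter filter.

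Leaving out 1 library at a time gave 1 higher and 6 to 7 lower in CD, 0 to 1 and 6 to 7 in Rxra-OE, 0 to 2 and 3 to 4 in shE3, 0 and 1 to 5 at 0 h, 0 to 1 and 0 to 2 for DMSO at 4 h, 0 to 3 and 0 for DMSO at 8 h, 1 to 3 and 0 for CD at 4 h, and 3 to 4 and 0 for CD at 8 h. It gave 0 in both directions for the differences between arms, 0 and 3 to 4 between the iPSC lines, and 0 and 5 to 9 against MEF, where 4 members drop below the filter without either MEF library. The lone library of a group was then assumed to vary like the others.

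Same-numbered libraries did not deviate together throughout: the correlation of their deviations was -0.109 in the CD table, -0.135 in the Rxra table and 0.076 in the shE3 table. In the time course it ran from -0.72 (CD at 0 h with DMSO at 8 h) to 0.55 (CD with DMSO at 0 h), where the block kept both calls (Ccl8 adjusted p = 0.00567, Ccl7 0.0398). With the replicate block Cxcl12 at 4 h in DMSO (adjusted p = 0.0606), Ccl11 at 4 h in CD (0.0516) and Ccl7 at 8 h in CD (0.0527) missed the threshold, and no other call of a member changed. Groups of 2 limit the precision of every value, and the depth of the TPM tables is unknown.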
